A study of Rattus norvegicus with 6 samples.

Results

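The sensory neuropeptide genes are 10 genes whose products are short peptides that sensory neurons store and release: Calca, Calcb, Tac1, Adcyap1, Gal, Npy, Sst, Vip, Nppb and Cartpt. They were taken by gene name from a table of 22536 genes, and all 10 were found. Of these, 8 reached 1 FPKM in at least 3 libraries and were tested, and 2, Npy and Vip, did not. The libraries came from 6 male rats, 3 of them controls and 3 with PDN, or painful diabetic neuropathy, in which nerve damage from diabetes causes pain. RNA was sequenced from each and the tissue is given as sensory neuron. The series title points to the dorsal root ganglion, which holds the cell bodies of the sensory neurons that run to the spinal cord. No source used here gives the way diabetes was produced, the strain, the age or any treatment of the controls.

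Neuropeptides are cut from larger precursor proteins, packed into dense-core granules and released from both ends of a sensory neuron. Released in the skin or other tissue, calcitonin gene-related peptide (CGRP) and substance P widen vessels and drive neurogenic inflammation. Released in the spinal cord, they add to pain transmission, whereas peptides such as galanin, neuropeptide Y and somatostatin act on receptors that mostly dampen neuronal activity. After a cut nerve, galanin, neuropeptide Y and VIP are known to rise in sensory neurons while CGRP and substance P fall, so the family is often read as a sign of the state of these cells.

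Values are FPKM, fragments scaled to transcript length and library size, so levels may be compared between genes. A depth of 51855000 to 62785000 fragments per library could be worked out from the deposited tables. Between 13093 and 13286 genes per library reached an FPKM of 1. Sensory neuron markers were high in every library: Avil ran from 198 to 248 FPKM, Prph from 742 to 830 and the nociceptor channel gene Scn10a from 102 to 132. Among markers of sympathetic neurons, which also make neuropeptide Y, Dbh was listed at 0 in 5 of 6 libraries, with 0.0283 FPKM in control 2. The summed level of 10 sympathetic markers was 2.03 to 3.05 FPKM in controls and 1.72 to 2.28 in PDN. That of 12 spinal cord markers was 1.70 to 2.59 and 1.80 to 2.66, with Olig2, Pax2 and Mnx1 listed at 0 throughout. Control 2 held the most muscle RNA, with skeletal muscle genes at a sum of 520 FPKM. PDN 3 had 169 and PDN 1 had 32.1, and the remaining 3 libraries had 1.92 to 2.15.

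The level of the 10 genes spanned several orders of magnitude. Calca was the most abundant by far, with a mean of 599 FPKM over the 6 libraries and rank 40 among all genes. Tac1 followed at 173 FPKM (rank 252), then Calcb at 63.3 (rank 1043), Sst at 57.3 (rank 1181) and Adcyap1 at 27.8 (rank 2697). Cartpt (2.45), Gal (1.82) and Nppb (1.24) lay near the lower end of what was tested, and Vip (0.168) and Npy (0.0515) below it. Neighbours in this order whose libraries overlapped were Calcb and Sst, Cartpt and Gal, Gal and Nppb, and Vip and Npy. Calcb was above Sst in 5 of 6 libraries and Cartpt above Gal in 3 of 6, so the order within those pairs was not fixed.

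**Figure D1:**
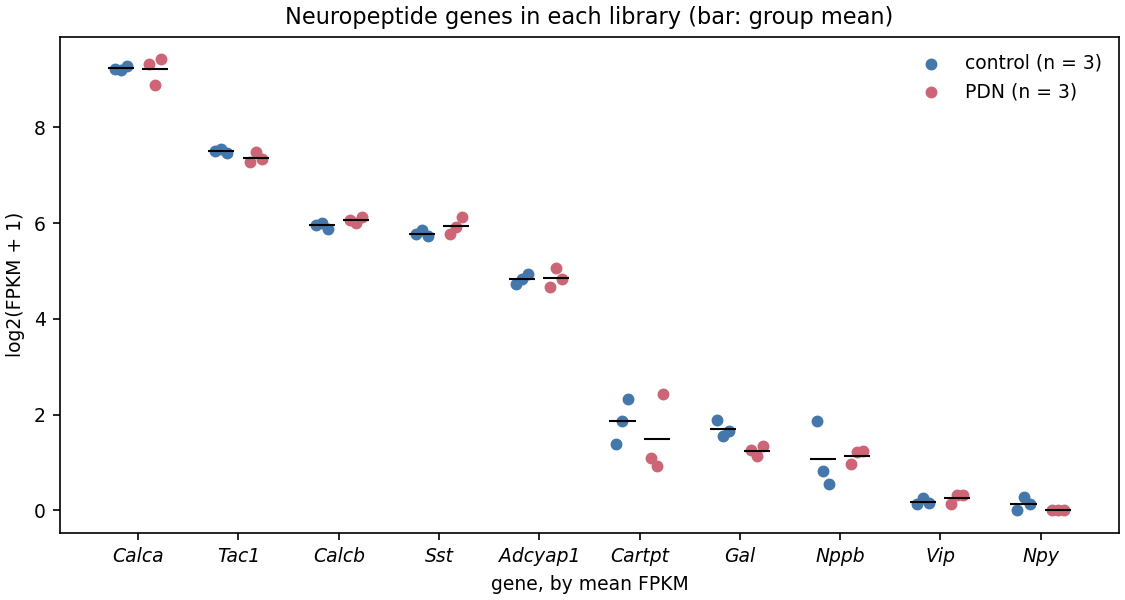
Level of the 10 neuropeptide genes in each library, as log2(FPKM + 1), with 3 control (blue) and 3 PDN (red) libraries and a bar at each group mean. Calca is highest at 473 to 684 FPKM, and Npy is listed at 0 in 4 of 6 libraries, including all 3 from PDN.

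Many neuropeptide genes are classic targets of cyclic AMP signalling through the cyclic AMP response element (CRE), whose full form is TGACGTCA and whose core is TGACG. RefSeq promoter windows of the GRCr8 build, from 250 bases before to 50 bases after the gene start, were held for 9 of the 10 genes, with none for Calcb. The windows below are shown because they carry these letters, in capitals, on either strand, and they are written 5′ to 3′ along the gene. The core also lies within the full form, so the matches overlap.
Sst: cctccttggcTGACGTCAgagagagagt
Cartpt: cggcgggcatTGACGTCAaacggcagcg
Calca: agcaccgaggTGACGcaatctgtct
Gal: gctgagcgggTGACGcggcagctcc
Vip: atcaccactgTGACGtctttcgagg
Tac1: cctaaaattgCGTCAtttcgaaccc
The Sst window lies at chr11:90461538-90461565 on the plus strand, and its letters begin at base 3 of the annotated transcript. That of Cartpt is at chr2:32991360-32991387 on the minus strand, with the letters beginning 142 bases before the start. The others are at chr1:178317627-178317651 (Calca, minus strand, 112 bases before the start), chr1:210084621-210084645 (Gal, minus strand, 63 bases), chr1:44470373-44470397 (Vip, plus strand, 97 bases) and chr4:36645367-36645391 (Tac1, plus strand, 206 bases, core read on the opposite strand). The full form was in 2 of the 9 windows and in 1.83% of the 33469 windows of the table, and the core in 6 of 9 and in 21.2%. The genes that hold these letters had very different levels, from 599 FPKM for Calca to 0.168 for Vip. No such letters were found in the windows of Adcyap1, Npy and Nppb. A match is a description of the sequence and not a measured binding site.

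Calca and Calcb encode the α and β forms of CGRP, the main vasodilator peptide of pain-sensing neurons. Calca also gives rise to calcitonin by alternative splicing, and the gene-level values do not separate the products. Calca (ENSRNOG00000011130, chromosome 1, 184184020 to 184188911, in an unnamed build) was at 594, 589 and 618 FPKM in controls 1 to 3 and at 636, 473 and 684 in PDN 1 to 3. The controls lay close together, and the PDN libraries spread to both sides of them, with PDN 2 lowest and PDN 3 highest of all. PDN averaged 598 ± 111 FPKM and controls 600 ± 15.8 (n = 3 each, ± SD), which gave a log2 fold change of -0.02 ± 0.14 (SE). Every fold change is PDN over control, from log2(FPKM + 1) values, and the 95% interval for Calca was -0.34 to 0.29 (limma, Benjamini-Hochberg adjusted p = 0.999). Without PDN 2 the sign turned and the fold change was 0.14.

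Calcb (ENSRNOG00000011074, chromosome 1, 184271590 to 184276475) was at 61.2, 63.4 and 57.8 FPKM in controls and 66.2, 62.7 and 68.4 in PDN. PDN 1 and PDN 3 lay above all controls, and PDN 2 lay within their range. The log2 fold change of Calcb was 0.11 ± 0.07 (SE, interval -0.04 to 0.26, limma adjusted p = 0.999). As the 2 genes are close paralogues, the division of fragments between them by the authors' quantification is uncertain. The ratio of Calca to Calcb was 9.7, 9.28 and 10.7 in controls and 9.61, 7.55 and 10 in PDN. PDN 2 was thus lowest in this ratio as well, and the other 5 libraries lay together. On the log2 scale the ratio was 3.17 ± 0.22 in PDN, and controls had 3.30 ± 0.11 (n = 3 each, ± SD), a difference of -0.14 (exact permutation test, two-sided, p = 0.5, where 3 against 3 cannot go below 0.1).

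Tac1, the precursor gene of substance P and neurokinin A, had the lowest log2 fold change of the 5 abundant members. Tac1 (ENSRNOG00000007374, chromosome 4, 33638709 to 33646819) was at 181, 185 and 176 FPKM in controls and 155, 177 and 160 in PDN. PDN 1 and PDN 3 lay below all controls, but PDN 2 reached just past control 3, so the groups overlapped. The PDN mean was 164 ± 11.8 and the control mean 181 ± 4.40 (n = 3 each, ± SD). The log2 fold change of Tac1 was -0.14 ± 0.07 (SE), with limma interval -0.31 to 0.02, unadjusted p = 0.0842 and adjusted p = 0.999. Leaving out 1 library at a time gave -0.20 to -0.10.

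**Figure D2:**
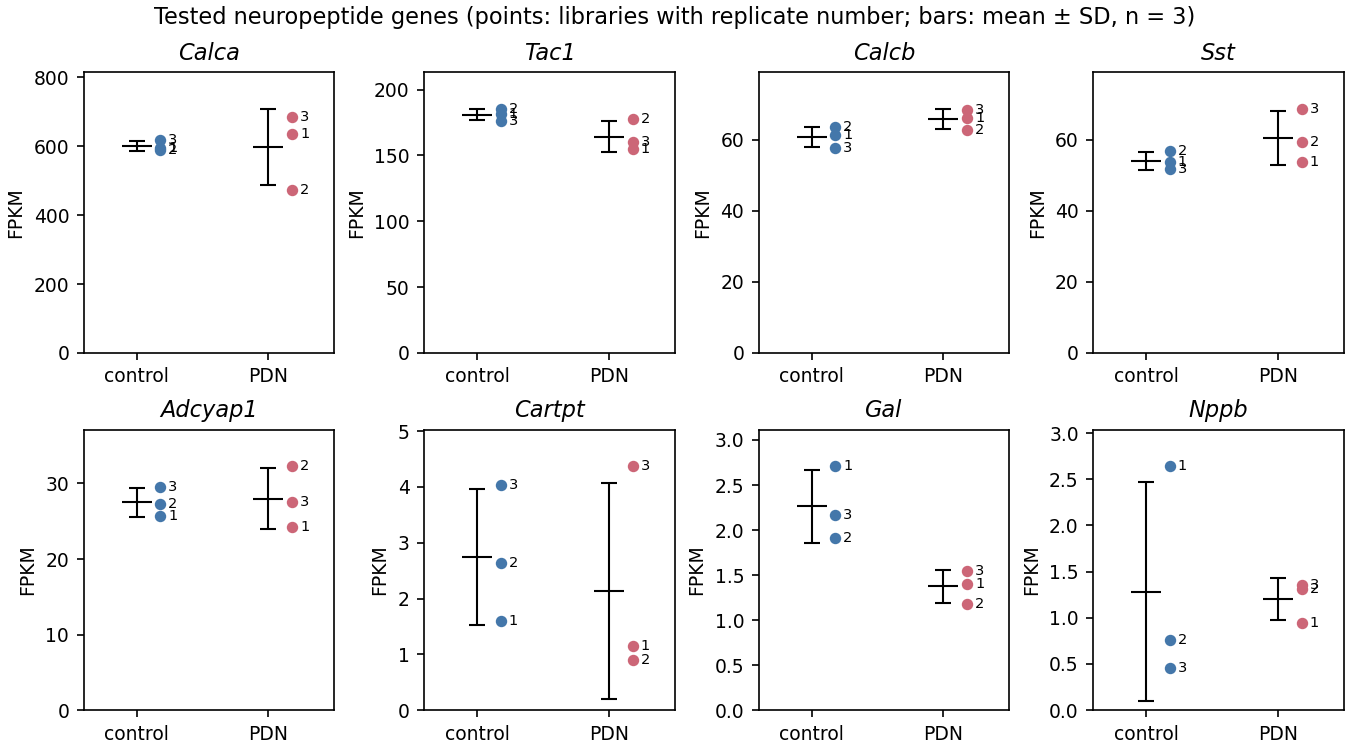
FPKM of the 8 tested neuropeptide genes in controls (blue) and PDN (red), 1 point per library with its replicate number, and mean ± SD over 3 libraries as a bar, on axes that start at 0. Gal is the 1 gene whose 3 PDN points all lie below its 3 control points, and Calca spreads more widely in PDN (SD 111) than in controls (SD 15.8).

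Adcyap1 makes PACAP, a peptide of the secretin family that acts on vessels and nociceptors. Adcyap1 (ENSRNOG00000049882, chromosome 9, 121706979 to 121725716) was at 25.7, 27.3 and 29.5 FPKM in controls and 24.2, 32.3 and 27.5 in PDN. PDN libraries were both the lowest and the highest, and the control range lay inside theirs. The log2 fold change of Adcyap1 was 0.02 ± 0.11 (SE), with an interval of -0.24 to 0.28 (limma, adjusted p = 0.999). Without PDN 2 it was -0.09, and without control 1 it was -0.03.

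PDN 2, the library lowest in Calca, was the highest of all in Adcyap1 and the highest of the PDN libraries in Tac1. Calca made up 58.5% of the summed FPKM of the 10 genes there, against 63.5% to 67.8% in the other 5 libraries. Tac1 made up 21.9% in PDN 2, against 15.8% and 16.5% in PDN 3 and PDN 1 and 18.8% to 20% in controls. The ratio of Tac1 to Calca was 0.305, 0.314 and 0.285 in controls and 0.243, 0.375 and 0.235 in PDN. Every PDN library therefore lay outside the narrow control range, but on different sides of it. The difference in the log2 ratio was -0.12 (exact permutation test, two-sided, p = 0.7, n = 3 each), and without PDN 3 it was 0.0028. Sums over the 10 genes were 923 to 941 FPKM in controls and 809 to 1020 in PDN, or 0.262% to 0.279% and 0.229% to 0.294% of all FPKM. Markers of nociceptors differed in where PDN 2 lay. Scn10a was at 111 FPKM there against 102 to 132 elsewhere, and Trpv1 at 55.2 against 47.5 to 56.1. Tmem233 (26.2 FPKM) and Mrgprd (15.6 FPKM) were lowest of all libraries in PDN 2, but close to control 2 (26.5 and 16.0 FPKM). In contrast, Mrgprb5 (1.79 FPKM) was highest of all libraries in PDN 2, and P2rx3 (120 FPKM) was highest of the PDN libraries there. The part of cell composition in its Calca level was not tested.

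**Figure D3:**
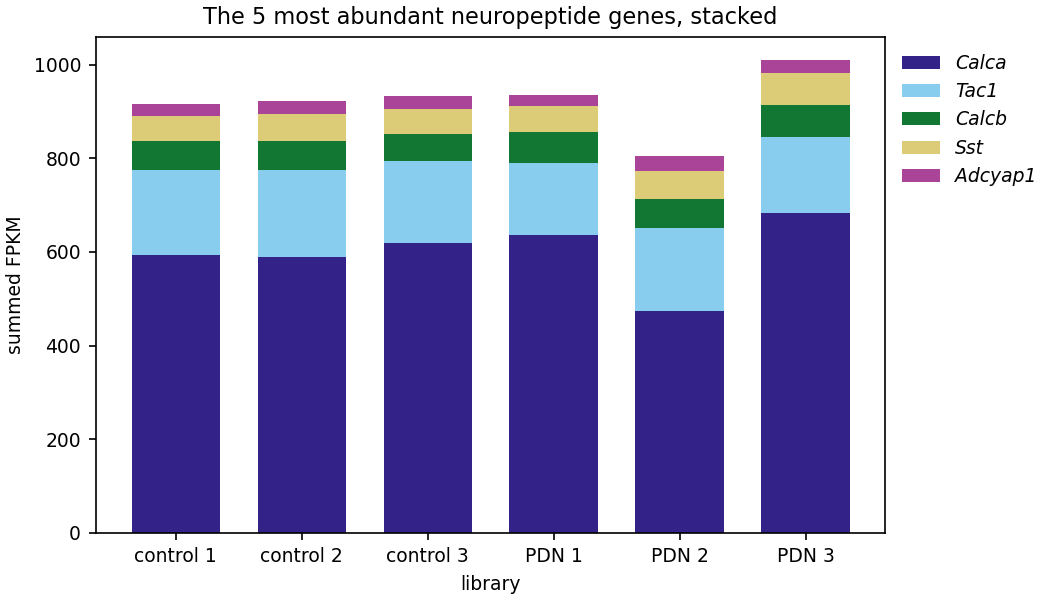
Summed FPKM of the 5 most abundant neuropeptide genes in each library, stacked by gene. Controls are nearly alike, while PDN 2 is shortest through its Calca segment (473 FPKM) and PDN 3 is tallest (684 FPKM of Calca).

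Sst encodes somatostatin, an inhibitory peptide found in a subset of small neurons that are also tied to itch. Sst (ENSRNOG00000001837, chromosome 11, 80358211 to 80359444) was at 53.6, 56.7 and 51.7 FPKM in controls and 53.6, 59.4 and 68.6 in PDN. PDN 2 and PDN 3 lay above all controls, and PDN 1 lay between controls 3 and 1, the latter higher by less than this rounding shows. The log2 fold change of Sst was 0.16 ± 0.10 (SE), with an interval of -0.07 to 0.38 (limma, adjusted p = 0.999). PDN 3 carried much of it, as the fold change was 0.06 without that library, while it was 0.24 without PDN 1. Nppb encodes B-type natriuretic peptide, a transmitter of the same itch neurons. Nppb (ENSRNOG00000008141, chromosome 5, 164796185 to 164797531) was at 2.64, 0.755 and 0.455 FPKM in controls and 0.942, 1.31 and 1.36 in PDN. Control 1 was the highest and control 3 the lowest of all libraries, so the controls enclosed the PDN values. The log2 fold change of Nppb was 0.06 ± 0.32 (SE), with an interval of -0.68 to 0.81, and it was -0.20 without control 3 and -0.07 without control 2. Sst and Nppb thus differed in spread, and the order of the libraries in one was not that in the other.

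Gal, the gene of galanin, was the member with the smallest p and the 1 whose groups did not overlap. Gal (ENSRNOG00000015156, chromosome 1, 218652917 to 218657925) was at 2.71, 1.92 and 2.17 FPKM in controls and 1.40, 1.18 and 1.54 in PDN. All 3 PDN libraries lay below all 3 controls, with a gap from 1.54 to 1.92. PDN averaged 1.37 ± 0.182 FPKM and controls 2.27 ± 0.405 (n = 3 each, ± SD). That is a log2 fold change of -0.46 ± 0.12 (SE, interval -0.74 to -0.17). The unadjusted p was 0.00705 in limma, and the adjusted p over all 13282 tested genes was 0.909, so the difference did not pass the threshold. Over 17 alternative settings the adjusted p of Gal ran from 0.679 to 1. Its estimate stayed below 0 in each of them, between -0.53 and -0.36 with any 1 library removed. With all 3 PDN libraries below all 3 controls, leaving libraries out could not turn that sign. Nor could the other filters, the variance settings or the block. As a level near the filter, the estimate depends on the pseudocount, and it was -0.68 with a pseudocount of 0.1. In the authors' whole-number table it was -0.31, the smallest in size of the 17 settings. Those values were scaled to library totals, so the pseudocount weighs differently there and the sizes are not directly comparable.

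Of the 8 tested neuropeptide genes, 0 passed an adjusted p of 0.05, against 0% of all tested genes. At an unadjusted p under 0.05 there was 1 of 8, against 4.72% of the tested genes in either direction and 2.89% lower in PDN. Likewise 1 of 8 members had groups without overlap, as did 9.93% of the tested genes, or 6.24% counting those lower in PDN. A count of 1 in 8 is therefore not read as a result about the family. Estimates were higher in PDN for 4 and lower for 4, with a median log2 fold change of -0.0028, beside -0.02 over all tested genes, of which 56.6% had a lower estimate.

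Cartpt, which encodes the CART peptides, had the widest span of the tested members on the log2(FPKM + 1) scale, at 1.5. Cartpt (ENSRNOG00000017712, chromosome 2, 30125249 to 30127269) was at 1.6, 2.63 and 4.03 FPKM in controls and 1.14, 0.903 and 4.37 in PDN. PDN 1 and PDN 2 lay below all controls, and PDN 3 lay above them. The log2 fold change of Cartpt was -0.37 ± 0.41 (SE), with an interval of -1.34 to 0.59 (limma, adjusted p = 0.999). Single libraries decided its size: it was -0.84 without PDN 3, -0.61 without control 1, -0.18 without PDN 1, -0.13 without control 3 and -0.09 without PDN 2. Over all alternatives the adjusted p was 0.743 to 1.

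Npy and Vip, the genes most associated with injured or sympathetic neurons, were close to 0. Npy (ENSRNOG00000009768, chromosome 4, 79557854 to 79565097) was listed at 0 in control 1 and in all 3 PDN libraries, at 0.22 FPKM in control 2 and at 0.0889 in control 3. Vip (ENSRNOG00000018808, chromosome 1, 42169501 to 42177582) was at 0.0907, 0.201 and 0.111 FPKM in controls and 0.0983, 0.256 and 0.249 in PDN, and its groups overlapped. In the fit without a filter the log2 fold change was 0.08 ± 0.07 (SE) for Vip and -0.14 ± 0.07 for Npy, both at an adjusted p of 0.97. The injury genes fixed beside them had 9 tested members, of which 0 passed the adjusted threshold, 6 had a higher and 3 a lower estimate, and 1 a lower one with median-of-ratios scaling. Among them Atf3, a transcription factor switched on by axon damage, had a log2 fold change of 0.26, Stmn4 one of 0.12 and Jun one of -0.12. Each rested on single libraries, with 0.07 for Atf3 without PDN 3 and 0.45 without PDN 1. Stmn4 was at 0.03 without PDN 2 or control 2 and 0.25 without PDN 3, and Jun at -0.0017 without control 1. Sprr1a, a gene of regenerating neurons, was listed at 0 in every library.

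**Figure D4:**
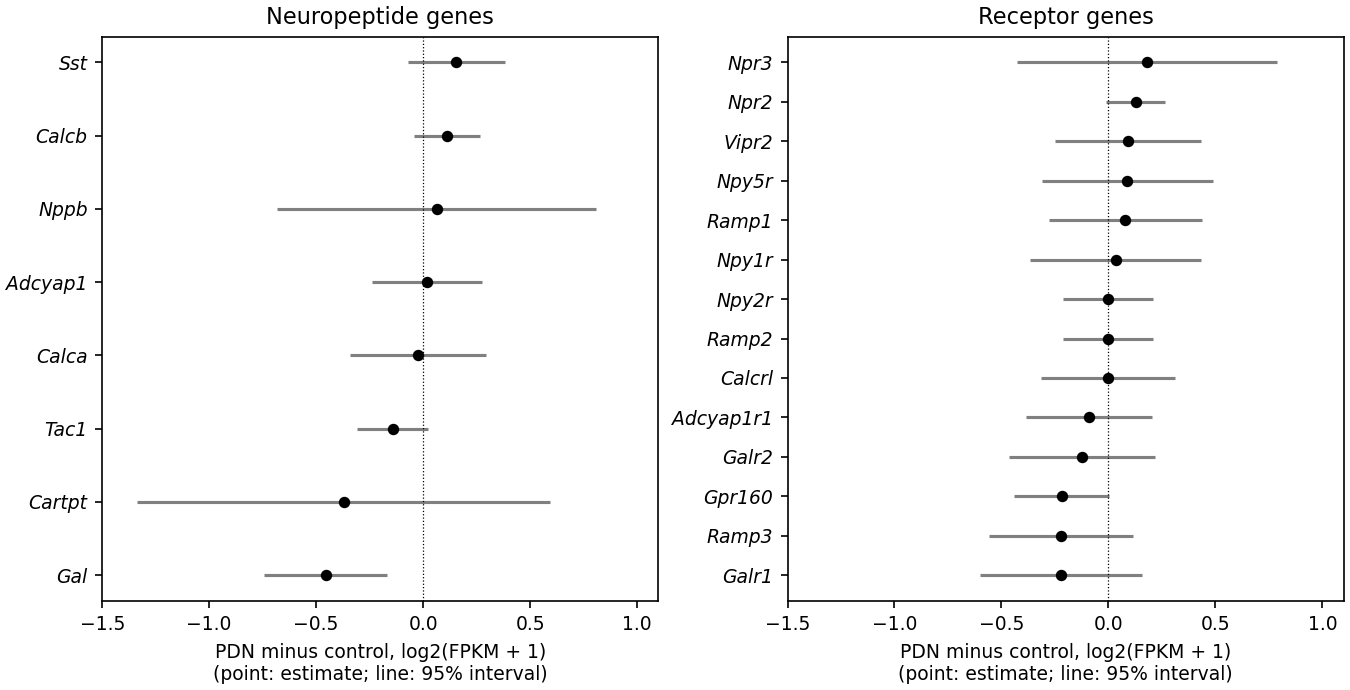
Log2 fold change (PDN minus control, log2(FPKM + 1) scale) of the 8 tested neuropeptide genes and of the 14 tested receptor genes, with 95% intervals from limma. Gal, at -0.46, is the 1 gene in either panel whose interval lies wholly on one side of 0, before any adjustment for the number of genes tested.

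The likeness of other genes to a member was measured for members that spanned at least 1 on the log2 scale, as the root mean square difference of centred log2(FPKM + 1) over the 6 libraries. Only Cartpt (span 1.5) and Nppb (span 1.32) did. The tested genes nearest to Cartpt were AABR07022144.1 (difference 0.128), Ptgdrl (0.238) and AABR07017241.1 (0.245). Ptgdrl was at 4.95, 5.61 and 10.4 FPKM in controls and 5.23, 4.22 and 9.63 in PDN, so control 3 and PDN 3 were high as in Cartpt. Nearest to Nppb were Fxyd5 (0.18), Il34 (0.193) and Orai1 (0.199). Fxyd5 was at 3.07 FPKM in control 1 and 0.747 in control 3, the same highest and lowest libraries as Nppb. These are the closest of 13282 genes over only 6 libraries.

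The receptors of these peptides are found partly on the sensory neurons themselves, where they can act as autoreceptors. Of 26 receptor genes on the list, 25 were found and 14 tested, and 0 passed the adjusted threshold. There were 6 higher and 8 lower estimates, and 5 lower with either other scaling. The median log2 fold change of receptors was -0.002. The CGRP receptor is built from Calcrl and Ramp1. Calcrl averaged 8.07 ± 0.872 FPKM in PDN beside 8.15 ± 1.55 in controls, and Ramp1 3.64 ± 0.692 and 3.39 ± 0.614 (n = 3 each, ± SD), both within their spread. Calcrl had a log2 fold change of -0.0037 that turned to 0.0151 with median-of-ratios scaling. Ramp3, a partner of Calcrl in an adrenomedullin receptor, was at 8.5 ± 1.31 against 10.1 ± 1.74 FPKM, with overlapping groups.

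Both tested galanin receptors had lower estimates, like Gal itself, but with wide intervals. Galr1 averaged 4.94 ± 1.06 FPKM in PDN, and controls had 5.92 ± 1.08 (n = 3 each, ± SD), a log2 fold change of -0.22 with an interval of -0.60 to 0.16. Galr2 was at 8.34 ± 1.90 against 9.04 ± 0.378, and its fold change of -0.12 turned to 0.0377 without PDN 3. Npy1r, the most abundant neuropeptide Y receptor gene here, was at 22.6 ± 5.15 against 21.7 ± 2.55 FPKM, although its ligand gene was at or near 0 in the same tissue. Adcyap1r1, the PACAP receptor gene, was at 1.48 ± 0.0877 against 1.65 ± 0.368 FPKM.

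Among the 14 tested receptor genes, 1 lay wholly higher and 1 wholly lower in PDN, beside 3.69% and 6.24% of all tested genes. Neither count of 1 in 14 is read as a result about the receptors. Npr2 was on the list as a natriuretic peptide receptor, but its ligand, C-type natriuretic peptide, is not a product of the 10 genes. Npr2 was at 29.0, 27.0 and 28.6 FPKM in controls and 31.2, 30.3 and 31.0 in PDN. Its log2 fold change was 0.13 ± 0.06 (SE), with an interval of -0.01 to 0.27 (limma, adjusted p = 0.999). Gpr160, an orphan receptor that has been proposed as a CART receptor, was at 1.44, 1.37 and 1.52 FPKM in controls and 1.07, 1.20 and 1.04 in PDN, a log2 fold change of -0.22 ± 0.09 (limma, adjusted p = 0.999). Below the filter, Tacr1, the substance P receptor, was chosen after its values were seen. Tacr1 was at 0.402, 0.389 and 0.588 FPKM in controls and 0.219, 0.141 and 0.188 in PDN, so all PDN libraries were lower. In the fit without a filter its log2 fold change was -0.30 ± 0.06 (SE), at an unadjusted p of 0.00257 and an adjusted p of 0.753.

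Genes of precursor cutting and granule storage gave no call between the groups. All 18 genes of this list were tested, with 0 past the adjusted threshold, 0 at an unadjusted p under 0.05 and 0 whose groups did not overlap, beside 0%, 4.72% and 9.93% of all tested genes. Estimates were higher for 10 and lower for 8, and lower for 5 with either other scaling, with a median log2 fold change of 0.01. The convertases Pcsk1 (13.5 ± 0.919 against 14.1 ± 0.921 FPKM) and Pcsk2 (33.2 ± 2.05 against 31.5 ± 2.31) differed by less than the spread between libraries, and so did Pam, which amidates peptides such as CGRP and substance P (55.2 ± 3.06 against 54.5 ± 1.95; n = 3 each, ± SD). The 3 genes with the smallest p were Scg2, a granin, at a log2 fold change of -0.13, Ptprn2, a granule membrane protein, at 0.17 and Cpe, the carboxypeptidase that trims the cut ends, at 0.08.

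Peptidases that break neuropeptides down had 11 tested genes of 14, with 0 past the adjusted threshold and a median log2 fold change of -0.05. There were 3 higher and 8 lower estimates, with 6 lower under median-of-ratios scaling. Those with the smallest p were Dpp3 (log2 fold change -0.10), Rnpep (-0.10) and Prep (0.06), and 0 of the 11 had groups that did not overlap, beside 9.93% of all tested genes.

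Other precursor genes were mostly low, as 28 of 30 were found and 8 tested. Of these 8, 0 passed the adjusted threshold and 1, Crh, had an unadjusted p under 0.05, beside 4.72% of all tested genes. Crh, the gene of corticotropin-releasing hormone, was at 4.18, 10.9 and 11 FPKM in controls and 4.31, 2.94 and 4.14 in PDN. Controls 2 and 3 were high, and control 1 lay among the PDN libraries. Its log2 fold change was -0.93 ± 0.32 (SE), with an unadjusted p of 0.0221 and an adjusted p of 0.999 in limma. Nmb, the gene of the itch peptide neuromedin B, had a log2 fold change of 0.22 that was 0.03 without control 3 and 0.45 without control 1, and Iapp, the amylin gene related to Calca, one of -0.26 that turned to 0.0391 without PDN 1.

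**Figure D5:**
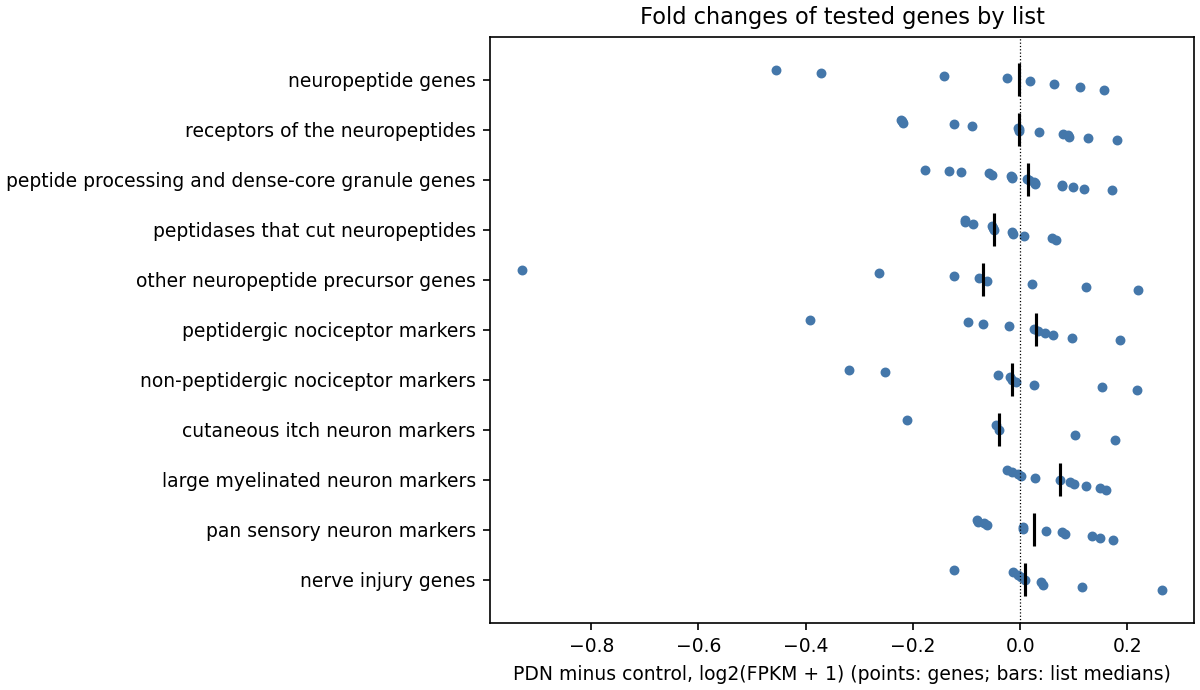
Log2 fold changes (PDN minus control, log2(FPKM + 1) scale) of the tested genes in 11 lists, 1 point per gene with a bar at each list median. The medians lie between -0.07 and 0.07, and of the genes drawn the point farthest to the left is Crh at -0.93. Lists of non-neuronal cells are not drawn, and their medians ran from -0.82 (red blood cells) to -0.0035 (Schwann cells).

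Neuropeptide levels in a whole ganglion also follow how many neurons of each kind it holds, and in bulk tissue fewer cells of a type and less RNA per cell cannot be told apart. The list for peptidergic nociceptors, the neurons richest in CGRP and substance P, had 10 tested genes. Of these, 6 had a higher and 4 a lower estimate and 0 passed the adjusted threshold, with a median of 0.03. Some of them, such as Scn10a, mark nociceptors more widely, so the list does not describe peptidergic neurons alone. The heat channel gene Trpv1 averaged 52.3 ± 2.73 FPKM in PDN beside 51.5 ± 4.32 in controls (n = 3 each, ± SD), and its direction turned in some fits with libraries left out. Trpa1, the irritant channel gene, was the 1 of 10 whose groups did not overlap, at 36.0, 29.7 and 31.7 FPKM in controls and 20.5, 24.8 and 28.6 in PDN (log2 fold change -0.39, limma adjusted p = 0.999). Of all tested genes, 6.24% lay wholly lower in PDN, so 1 of 10 is not read as a result about these markers. The next smallest p belonged to Gfra3 (0.19) and Prdm12 (0.10).

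Non-peptidergic nociceptors had 9 tested markers, 3 higher and 6 lower (3 lower with median-of-ratios scaling), with a median of -0.01. Among them Plxnc1 had a log2 fold change of -0.32 and Mrgprb5 one of 0.22. Markers of the itch neurons that use Sst and Nppb had 5 tested genes, 2 higher and 3 lower, with a median of -0.04, led by Cysltr2 (-0.21), Hrh1 (0.18) and Osmr (0.10). Large myelinated neurons had 11 tested markers, 8 higher and 3 lower (1 lower with median-of-ratios scaling), with a median of 0.07, led by Scn1a (0.09), Kcns1 (0.12) and Spp1 (0.15). The general sensory neuron markers had 12 tested genes, 8 higher and 4 lower, with a median of 0.03, led by Isl1 (0.17), Avil (0.15) and Pou4f1 (0.08). These counts moved with single libraries. With 1 left out, the number of lower estimates ran from 0 (without control 1 or PDN 2) to 7 (without control 3) for large myelinated neurons, from 2 to 7 for peptidergic and 3 to 7 for non-peptidergic nociceptors, from 1 to 4 for itch neurons and from 4 to 7 for general markers. Scn1a, Isl1 and Uchl1, the last named after its values were seen, lay wholly higher in PDN, as did 3.69% of all tested genes. No gene of these 4 lists passed the adjusted threshold, and their summed levels overlapped between the groups.

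Several lists of other cells had mostly lower estimates in PDN, beside 56.6% of all tested genes. Lower estimates were found for 6 of 7 tested macrophage, 6 of 6 fibroblast, 7 of 8 satellite glia and 4 of 4 red blood cell genes. They were also found for 5 of 6 endothelial and 4 of 8 Schwann cell genes. With either other scaling 5 macrophage genes were lower, and 0 genes of these lists passed the adjusted threshold. The summed level of 9 macrophage markers was 35.9 to 49.8 FPKM in controls and 26.4 to 36.0 in PDN, and that of 7 fibroblast markers 370 to 412 and 318 to 360. For 8 satellite glia markers it was 218 to 263 and 212 to 226, and for 6 red blood cell genes 176 to 281 and 86.8 to 206. Of these sums, only that of the fibroblast markers did not overlap between the groups. The part of these cells in the lower Gal values was not tested. The part of muscle RNA was not tested either. With control 2 and PDN 3 both left out, Gal had a log2 fold change of -0.58, beside -0.46 with all libraries. That fit still held PDN 1, with a muscle sum of 32.1 FPKM.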

How the data were processed

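RNA from 3 control and 3 PDN rats, grouped by sample title, was sequenced as strand-specific libraries, per the labels' protocols. The FPKM table was used as the authors deposited it. The other table is named for read counts, but in each library 54.5% to 54.9% of its values above 1000 equalled, within a relative tolerance of 0.001, the FPKM times the gene's genomic span times 1 constant, and 0 exceeded that product. The authors' deposited whole numbers were therefore treated as a score and used only as an alternative. That constant gives the fragments per library, and no interval for counting error could be made. No source used here names the aligner, quantifier, annotation or genome build.

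The filter kept the 13282 genes that reached 1 FPKM in 3 or more libraries. Their log2(FPKM + 1) values were fitted on group by limma (3.58.1, R 4.3.3), using the intensity trend and Benjamini-Hochberg adjustment over all of them at a threshold of 0.05. Ratios were compared by exact permutation in scipy 1.17.1. The fit was tested on simulated data.

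The members and the 20 other gene lists were chosen with earlier results of these data known. Named genes are the 10 members and, in each list of the neuropeptide system, of neurons and of injury, the 3 tested genes with the smallest p. The receptor and processing lists allowed any tested member. Genes of the remaining cell type lists, which that rule also covers, are given as sums for brevity, and a few genes are not reported here. Marker genes named for their level only, and Sprr1a, were chosen after their values were seen. Alternatives were other pseudocounts, filters, scalings and variance settings, the replicate number as a block, and libraries left out.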

Additional observations from a re-analysis of the deposited data

How the results depend on the processing

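Under the 17 alternatives, 0 neuropeptide genes passed the adjusted threshold, and 127 of 134 refits of the 8 tested ones kept their direction. Alternatives that changed only the filter, the variance setting or the block left each estimate as it was. Direction could not turn in those refits, so the count overstates how far it was tried. With 1 library left out at a time, estimates ran from -0.13 to 0.14 for Calca (above 0 without PDN 2), -0.09 to 0.11 for Adcyap1 (below 0 without control 1 and without PDN 2) and -0.20 to 0.46 for Nppb (below 0 without control 2 and without control 3). Nppb was also -0.0023 in the whole-number table and -0.12 without control 2 and PDN 3 together. Among other named genes the same ranges were -0.0776 to 0.1316 for Calcrl, -0.0403 to 0.2105 for Ramp1, -0.2616 to 0.0377 for Galr2, -0.0757 to 0.2304 for Npy1r, -0.0178 to 0.0602 for Pam, -0.4829 to 0.0391 for Iapp, -0.0628 to 0.2296 for Osmr and -0.0303 to 0.0873 for Trpv1. Calcrl turned to 0.0151 with median-of-ratios scaling, 0.0122 with upper-quartile scaling and 0.0124 in the whole-number table. Without control 2 and PDN 3 together Calcrl was 0.0923, Galr2 0.0602, Osmr -0.155 and Trpv1 -0.0245. The cause was not tested.

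The difference in the log2 ratio of Tac1 to Calca ran from -0.34 to 0.0028 over the left-out libraries, the last without PDN 3, and that of Calca to Calcb from -0.21 to -0.01. Over all genes, the count higher in PDN (0 with limma) was 1 in the whole-number table, 5 without control 2 and PDN 3 together, and 0 to 3 with 1 library left out. It was 3 without control 1, 2 without either control 3 or PDN 3, and 1 without PDN 1. The count lower (0) was 1 without a filter, with robust empirical Bayes, without the trend and in the whole-number table, and 4 without control 2 and PDN 3 together. With 1 library left out it was 0 to 4, with 3 for PDN 1 and 4 for PDN 3. One of these genes, the macrophage gene Aif1, was on a list here, so that list had 1 call without PDN 3. In all, 627 genes had an unadjusted p under 0.05, and 950 without a filter. The share of genes with a lower estimate was 56.6%, and 49% with median-of-ratios scaling.

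No pairing of same-numbered libraries was evident. Their deviations from the group means correlated at 0.171, -0.12 and -0.086, and not every library correlated best with its own number. With 3 libraries per group, such correlations cannot exclude a pairing. With the replicate number as a block, 0 genes passed, 849 had an unadjusted p under 0.05, and Gal had a log2 fold change of -0.46 (adjusted p = 0.747, within 0.679 to 1 over all alternatives).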

Other observations

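Several other neuropeptide precursor genes were not seen in this tissue. Of 28 precursor genes found beyond the 10 described, Grp, the gene of gastrin-releasing peptide, was listed at 0 FPKM in all 6 libraries, as were Uts2b, Gast, Oxt and Npvf. Penk, the enkephalin precursor gene, was present at 2.47 to 4.52 FPKM, whereas Pdyn, the dynorphin precursor gene, did not exceed 0.138.

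Cckbr, a cholecystokinin receptor gene on the injury list, lay below the filter and was chosen after its values were seen. It was at 0.149, 0.133 and 0.123 FPKM in controls and 0.312, 0.206 and 0.41 in PDN, so all 3 PDN libraries were higher. In the fit without a filter its log2 fold change was 0.20 ± 0.06 (SE), at an unadjusted p of 0.0129 and an adjusted p of 0.948 in limma. Of the 9 tested injury genes, 0 had groups that did not overlap, beside 9.93% of all tested genes.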
